A study of Mus musculus with 4 samples.

Results

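The genes described here are 38 mouse genes that activate fatty acids, oxidise them and release them from stored triglyceride, chosen by name from the 18364 genes of the table, and all 38 were in it. RNA was sequenced in bulk from sorted large peritoneal macrophages (LPMs), which reside in the peritoneal cavity, of C57BL/6 mice at 8 weeks of age. There were 2 libraries labelled WT and 2 labelled Rxra-KO (genotype Rxra-/-). Per the study's methods, the knockout carried *Rxra* fl/fl together with Cre driven by the *Lyz2* locus (LysM Cre), and *Rxra* fl/fl littermates without Cre served as controls, so floxed alleles were shared by both groups. Cre from this locus acts in myeloid cells in general, not in LPMs alone. The comparison addresses how loss of the retinoid X receptor RXRα, a nuclear receptor that pairs with other receptors such as the PPARs, alters the transcripts of LPMs.

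Fatty acids are released from triglyceride droplets by lipases and are joined to coenzyme A by acyl-CoA synthetases before they can be used. Long-chain acyl groups enter mitochondria as carnitine esters and are shortened there by repeated rounds of dehydrogenation, hydration, a second dehydrogenation and thiolysis, with electrons passed on through the electron transfer flavoprotein. Peroxisomes run a related chain that shortens very long and branched acyl groups and hands its products on to mitochondria. RXR forms heterodimers with the PPARs, nuclear receptors that bind fatty acids and are known regulators of many of these enzymes.

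The deposited value is a normalised read count, scaled for library size, from which whole reads were recovered. Depth was 652542 and 947372 reads in WT against 629030 and 1047021 reads in Rxra-KO, and the median gene had 9 reads per library. *Rxra* had 20 and 28 reads in WT against 33 and 77 in those labelled Rxra-KO, which goes against the label, so every direction below is between libraries as labelled. These reads cover the whole gene and do not measure the floxed part of it. *Lyz2*, into which the Cre is inserted, fell by 1.03 on the log2 scale (limma adjusted *p* = 0.00163). Of 9 resident macrophage markers in the table, 4 were called lower in Rxra-KO (*Itgam*, *Lyz2*, *Icam2* and *Gata6*). *Lyz2* carries the Cre insertion, so its fall cannot be read as a change of cells. The study had already named *Icam2* and *Gata6* as lower in these libraries. The remaining markers were not called, with *Fcgr1* and *Timd4* lower (log2 fold changes -1.07 and -0.80) and *Csf1r*, *Cd68* and *Mertk* higher (0.36, 0.22 and 0.19). All 9 had reads, while *Adgre1* (F4/80), the other of the 10 markers listed, was not matched by name in the table and was not analysed. Of 9 markers of monocyte-derived macrophages, 7 were called higher, while *Cx3cr1* and *Ly6c2* were lower (log2 fold changes -0.30 and -0.78) and not called. The 7 called markers had been named by the study as higher in these same libraries. Neither their count nor the following sum is therefore independent support. The summed value of all 9 was 124 to 388 in WT against 4346 to 5816 in Rxra-KO. The part of this shift in the results below was not tested. In bulk RNA, fewer cells of a type and less RNA per cell cannot be told apart. The labels do not say whether libraries came from separate mice, so p-values measure only the spread between these libraries, which may be technical.

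Of the 38 genes 1, *Hsd17b4*, passed the test. The 95% interval of the log2 fold change lay within 1 of 0 for 15 of the 38 (39.5%), against 18.0% of all genes. For the others no closeness to 0 is claimed. Calls were made by limma on log2(value + 1), and needed an adjusted p under 0.05, with adjustment across the 18364 genes, and a log2 fold change of 0.6 or more in size. That rule called 2.29% of all genes, 1.32% higher and 0.969% lower. Among the 38 genes, 1 was called higher and 0 lower, and 4 had an unadjusted p under 0.05 (*Hsd17b4*, *Crot*, *Acsl1* and *Crat*), against 10.1% of all genes. The 0 lower calls held with edgeR and DESeq2 too, and 1 gene, *Crot*, had an unadjusted p under 0.05 in that direction with limma. DESeq2 gave no adjusted p to some genes here and below, among them *Crat*, *Acsl1*, *Acot8* and *Abhd5*, and could not call these. The log2 fold change was above 0 for 18 genes and below 0 for 20, where 51.1% of all genes were above 0, with a median of -0.05 against 0.02 over all genes. The median absolute log2 fold change was 0.29, against 0.40 over all genes. By mean reads it was 0.19 against 0.27 at 100 or more, 0.38 against 0.34 at 10 to 100, and 0.40 against 0.50 under 10. These counts and medians include the fitted values of *Acads* and *Mgll*, which had at most 3 reads in each library.

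**Figure D1:**
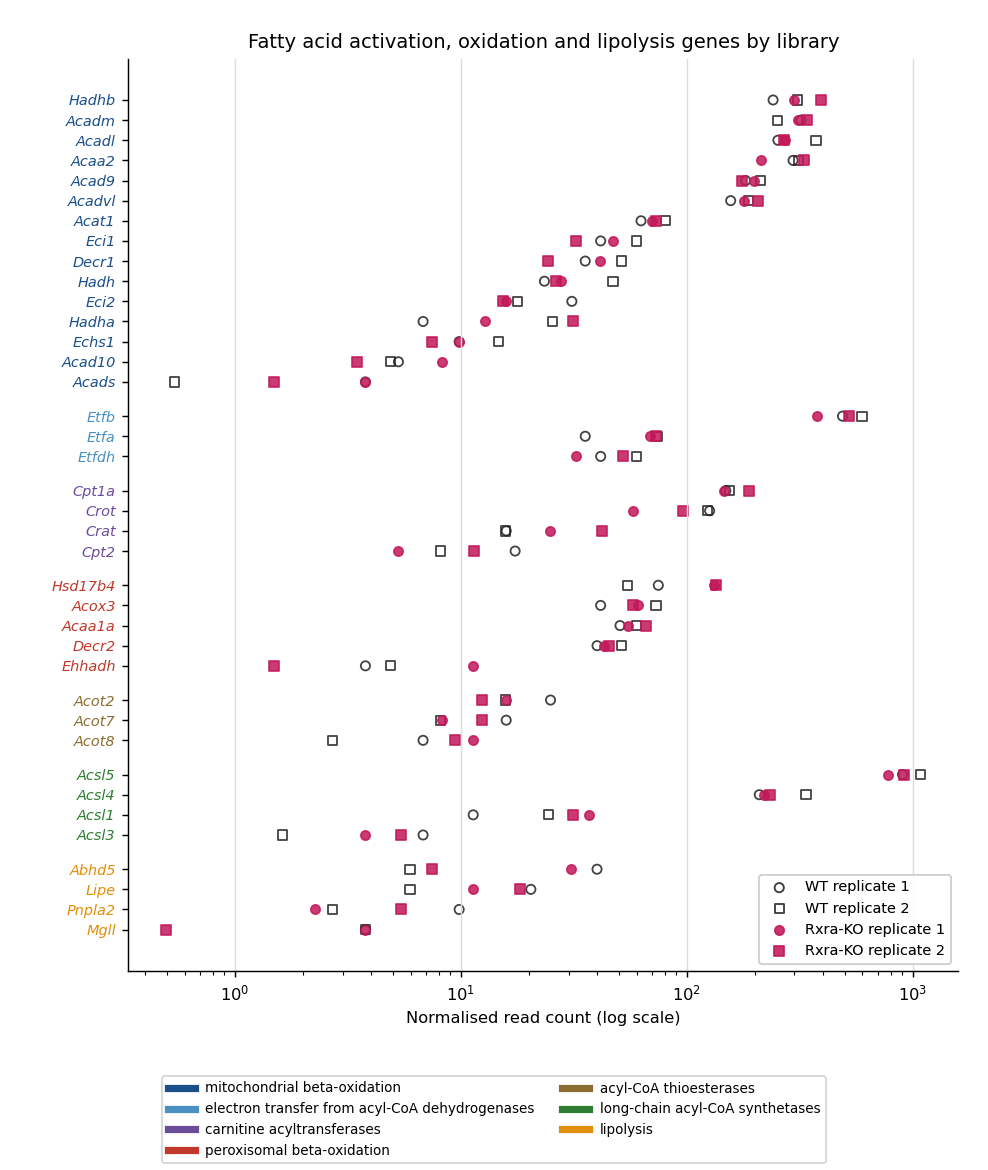
Normalised read count of each of the 38 genes in each of the 4 libraries, on a log axis, with genes grouped by role (colour of the name) and sorted by mean within a role. Open symbols are WT and filled symbols Rxra-KO, 1 point per library. For *Hsd17b4* both filled symbols lie to the right of both open ones, while for the abundant genes *Acsl5*, *Etfb* and *Hadhb* open and filled symbols interleave.

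The genes with the most reads differed little between the groups. A mean of at least 100 reads was reached by 10 genes, the synthetases *Acsl5* and *Acsl4*, the electron transfer subunit *Etfb*, the carnitine transferase *Cpt1a*, and *Acadl*, *Acadm*, *Acadvl*, *Acad9*, *Acaa2* and *Hadhb* of the mitochondrial chain. Their log2 fold changes ran from -0.28 to 0.32, none was called and none had an unadjusted p under 0.05 with limma, edgeR or DESeq2. The 95% interval of the log2 fold change rests mainly on the spread shared across genes of similar level, not on each gene's own libraries. It lay within 1 of 0 for all 10, so that under this model a doubling or halving lay outside each interval. This was the case for 73.7% of the 1405 genes in the table with such depth and for 18.0% of all genes. In all 10 the WT and Rxra-KO libraries overlapped, whereas the groups did not overlap for 55.2% of genes of that depth. A further 18 genes had a mean of 10 to 100 reads and 10 had fewer than 10, and the interval lay within 1 of 0 for 5 of the former and 0 of the latter, so that for the others a doubling, a halving or both lay inside the interval. Over all 38 genes the groups did not overlap for 8 (21.1%), 4 above and 4 below, against 38.1% of all genes, 18.8% above and 19.3% below. Those above were *Hsd17b4*, *Acsl1*, *Crat* and *Acot8*, and those below were *Crot*, *Eci2*, *Echs1* and *Mgll*, the last with at most 3 reads in any library.

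**Figure D2:**
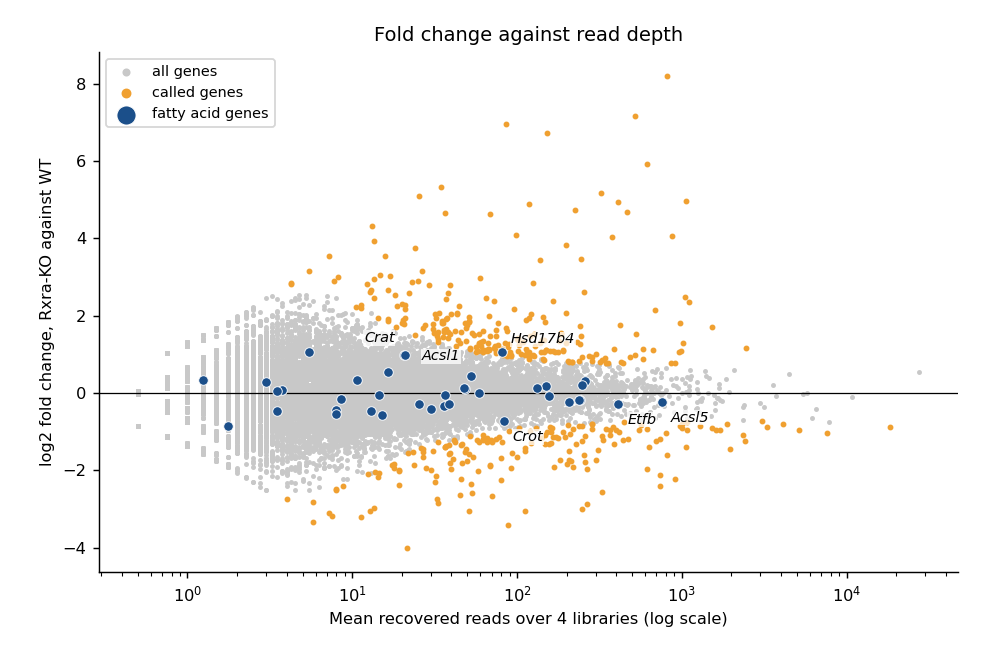
Log2 fold change of Rxra-KO against WT (vertical) by mean recovered reads over the 4 libraries (horizontal, log axis) for all 18364 genes in grey, the 421 called genes in orange and the 38 fatty acid genes in blue. Beyond 100 reads the blue points lie between -0.28 and 0.32, and *Hsd17b4* is the blue point among the orange ones above 0.

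Mitochondrial beta-oxidation, the chain that shortens fatty acids to acetyl-CoA, showed no called gene among its 15 members with limma, edgeR or DESeq2. Log2 fold changes ranged from -0.57 to 0.55 with a median of -0.07, 7 above 0 and 8 below. No member had an unadjusted p under 0.05 with limma, edgeR or DESeq2. *Hadhb*, the beta subunit of the mitochondrial trifunctional protein and the member with the most reads, had normalised read counts of 241 and 310 in WT against 297 and 394 in Rxra-KO. The higher WT library lay above the lower Rxra-KO library, so the groups overlapped. Its log2 fold change was 0.32 (standard error, SE, 0.24, limma adjusted *p* = 0.737).

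The acyl-CoA dehydrogenases, which take the first step on chains of different length, did not pass the test. *Acadl*, for long chains, had values of 254 and 374 in WT against 273 and 269 in Rxra-KO. *Acadm*, for medium chains, had 320 and 253 in WT against 312 and 340 in Rxra-KO. *Acadvl*, for very long chains, had 157 and 188 in WT against 180 and 207 in Rxra-KO. In each of these the groups overlapped, with log2 fold changes of -0.18, 0.19 and 0.17. *Acads*, for short chains, had 2 and 0 reads in WT against 2 and 1 in Rxra-KO, within the floor of 3 reads in both groups, and no fold is given. Per kilobase of transcript, *Acadm* and *Acadl* made up 30.5% to 43.1% and 34.8% to 48.1% of the summed level of these 4 genes, and *Acads* at most 0.557%.

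Some members of the chain gave groups that did not overlap, but with few reads. *Eci2*, an enoyl-CoA isomerase found in mitochondria and peroxisomes, had 20 and 16 reads in WT against 10 and 15 in Rxra-KO, or values of 31.04 and 17.9 against 15.8 and 15.4. For this gene the log2 fold change was -0.57 (SE 0.50, limma adjusted *p* = 0.821), or -0.19 without WT replicate 1. *Echs1*, the short-chain enoyl-CoA hydratase, had 6 and 13 reads against 6 and 7. Its lower WT library, at 9.84, exceeded the higher Rxra-KO library, at 9.79, by less than the value of 1 read. Its log2 fold change was -0.45 (SE 0.65, limma adjusted *p* = 0.929). *Eci3*, a near copy of *Eci2* with which reads could be shared, had 0 and 5 reads in WT against 1 and 0 in Rxra-KO.

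The other 7 members had overlapping groups and log2 fold changes from -0.42 to 0.08. They were the thiolases *Acaa2* (-0.19) and *Acat1* (0.004), the dehydrogenases *Acad9* (-0.07), *Acad10* (0.08) and *Hadh* (-0.29), the isomerase *Eci1* (-0.35) and the reductase *Decr1* (-0.42), which serves unsaturated chains. *Acad10* had between 3 and 5 reads in each library. *Decr1* and *Eci1* were lowest in Rxra-KO replicate 2 and highest in WT replicate 2.

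*Hadha* and *Hadhb* encode the alpha and beta subunits of one protein and start back to back on mouse chromosome 5. Their levels differed in every library. Per kilobase of transcript, *Hadhb* was 69.5 and 23.8 times *Hadha* in WT against 45.6 and 24.7 times in Rxra-KO, so the ratio was higher in the shallower library of each group. *Hadha* had 4 and 23 reads in WT against 8 and 31 in Rxra-KO. The ratio rests on these few reads and on a mapping reference that was not settled. It may therefore not be a difference in transcript level. The 85 bases between both gene starts are shown because this stretch lies upstream of both genes, at chr5:30155163-30155247 (GRCm38.p6, plus strand, RefSeq sequence).
Hadha-Hadhb: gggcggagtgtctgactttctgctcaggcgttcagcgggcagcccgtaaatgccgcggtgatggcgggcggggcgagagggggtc

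Electron transfer proteins pass electrons from the dehydrogenases to the respiratory chain. *Etfb*, the beta subunit of the electron transfer flavoprotein, had values of 490 and 597 in WT against 377 and 524 in Rxra-KO, and the groups overlapped. For this gene the log2 fold change was -0.28 (SE 0.22, limma adjusted *p* = 0.775). Of all 38 genes it had the highest level per kilobase, a mean of 557 against 217 for *Acsl5*, the next. *Etfa*, the alpha subunit, had values of 35.6 and 74.3 in WT against 68.5 and 73.0 in Rxra-KO, where WT replicate 1 was low and the other libraries were alike. *Etfdh*, the dehydrogenase that accepts the electrons, had a log2 fold change of -0.28. None of these 3 genes was called, and none had an unadjusted p under 0.05 with limma, edgeR or DESeq2.

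None of the 4 carnitine acyltransferases was called with limma, edgeR or DESeq2, although DESeq2 gave *Crat* no adjusted p and so could not call it. With limma, 2 of the 4, *Crot* and *Crat*, had an unadjusted p under 0.05. *Cpt1a*, which makes long-chain acylcarnitine at the outer mitochondrial membrane and controls entry to the chain, had 98 and 142 reads in WT against 97 and 189 in Rxra-KO. As normalised read counts these were 149 and 155 against 147 and 188, and the groups overlapped. Its log2 fold change was 0.13 (SE 0.26, 95% interval -0.38 to 0.64, limma adjusted *p* = 0.954). *Cpt2*, which reverses that step inside mitochondria, had between 3 and 11 reads in each library.

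*Crot*, the peroxisomal carnitine octanoyltransferase, had 83 and 114 reads in WT against 38 and 97 in Rxra-KO. The normalised read counts were 126 and 124 in WT, near each other, against 58.0 and 96.8 in Rxra-KO, both lower but apart from each other. For this gene the log2 fold change of -0.73 did not pass (SE 0.29, limma adjusted *p* = 0.250), and it was -0.37 without Rxra-KO replicate 1. *Crat*, the carnitine acetyltransferase of mitochondria and peroxisomes, had 10 and 14 reads in WT against 16 and 42 in Rxra-KO, or values of 15.9 and 15.7 against 24.8 and 42.2. Both Rxra-KO libraries lay above both WT libraries, with a log2 fold change of 0.99 (SE 0.47, limma adjusted *p* = 0.420), or 0.62 without Rxra-KO replicate 2. Per kilobase of transcript, the level of *Crat* relative to *Crot* was 0.09 in both WT libraries and 0.30 and 0.31 in the Rxra-KO libraries. This ratio was computed after the values were seen and was not tested. With 2 libraries against 2, an exact two-sided permutation test cannot go below *p* = 0.333.

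**Figure D3:**
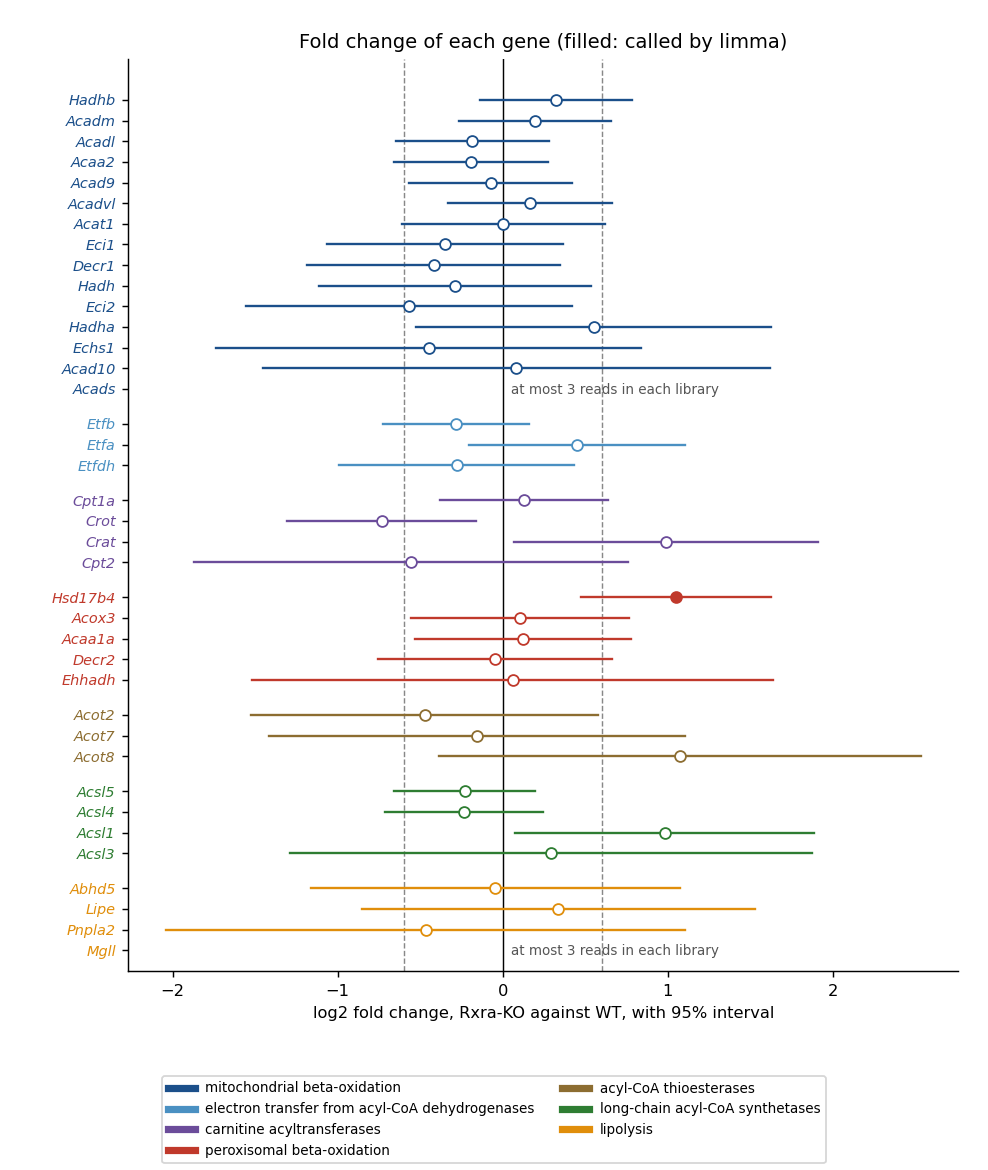
Log2 fold change of Rxra-KO against WT (points) with its 95% interval from limma (bars) for each gene, grouped by role, with dashed lines at 0.6 on either side of 0. The filled point is *Hsd17b4*, the called gene, at 1.05, and no value is drawn for *Acads* and *Mgll*, which had at most 3 reads in every library.

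Peroxisomal beta-oxidation held the 1 called gene, and the other members of its chain did not pass. *Hsd17b4*, the D-bifunctional protein that carries out the hydration and the second dehydrogenation of the peroxisomal chain, had 49 and 50 reads in WT against 87 and 136 in Rxra-KO. The normalised read counts were 74.9 and 54.8 in WT against 132 and 136 in Rxra-KO, so that both Rxra-KO libraries lay well above both WT libraries. The mean was 64.9 ± 14.3 in WT against 134 ± 2.70 in Rxra-KO (SD, n = 2). *Hsd17b4* rose, by 1.05 on the log2 scale (SE 0.29, 95% interval 0.47 to 1.62, limma adjusted *p* = 0.0213). Over the alternative fits the log2 fold change ran from 0.83 to 1.27. The direction could not turn when a library was left out, since the groups did not overlap. The adjusted *p* ranged from 0.00634 with the replicate number as a block to 0.564 with limma without the mean-variance trend. The call was kept by edgeR (adjusted *p* = 0.0211) and not by DESeq2 (adjusted *p* = 0.127). It was lost in 3 of 4 fits with a library left out, at 0.83 without WT replicate 2 (limma adjusted *p* = 0.394), 1.07 without Rxra-KO replicate 1 (limma adjusted *p* = 0.209) and 1.03 without Rxra-KO replicate 2 (limma adjusted *p* = 0.211).

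The other 4 genes of the peroxisomal chain had log2 fold changes between -0.05 and 0.12, and none was called or had an unadjusted p under 0.05 with limma, edgeR or DESeq2. *Acox3*, an oxidase for branched acyl-CoA, had values of 41.6 and 73.2 in WT against 61.0 and 58.1 in Rxra-KO. *Acaa1a*, the thiolase of the last step, had 50.7 and 60.2 against 55.0 and 66.0. *Decr2*, a reductase for unsaturated chains, had 40.1 and 51.5 against 42.9 and 45.2. In these 3 genes the libraries of both groups overlapped. *Acaa1b*, a near copy of *Acaa1a*, was not matched by name in the table, so reads shared with it were not checked. *Ehhadh*, the L-bifunctional protein, which catalyses the same steps as *Hsd17b4*, had 2 and 4 reads in WT against 7 and 1 in Rxra-KO, too few to place it. *Hsd17b4* made up 32.3% and 20.9% of the summed level per kilobase of these 5 genes in WT against 41.4% and 40.9% in Rxra-KO.

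Enzymes of the mitochondria were set beside those of the peroxisome. For the 20 mitochondrial genes the median log2 fold change was -0.13, 9 above 0 and 11 below, and 0 were called. For the 7 peroxisomal genes, which include *Crot* and the thioesterase *Acot8*, the median was 0.11, 5 above 0 and 2 below, and 1 was called. Without *Hsd17b4* the peroxisomal median was 0.083. By library, the median level of the mitochondrial genes, each centred on its own mean over the libraries, was -0.08 and 0.16 in WT and -0.04 and 0.06 in Rxra-KO. For the peroxisomal genes it was -0.18 and 0.12 in WT against 0.09 and 0.02 in Rxra-KO. In both sets the WT libraries were the furthest apart and enclosed both Rxra-KO libraries. The mitochondrial median became 0.03 without WT replicate 2, and the peroxisomal median became -0.09 without WT replicate 1. WT replicate 2 also had the highest summed value of 10 cell cycle markers, 1693 against 740 in WT replicate 1 and 293 to 325 in Rxra-KO, and their part in these medians was not tested.

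**Figure D4:**
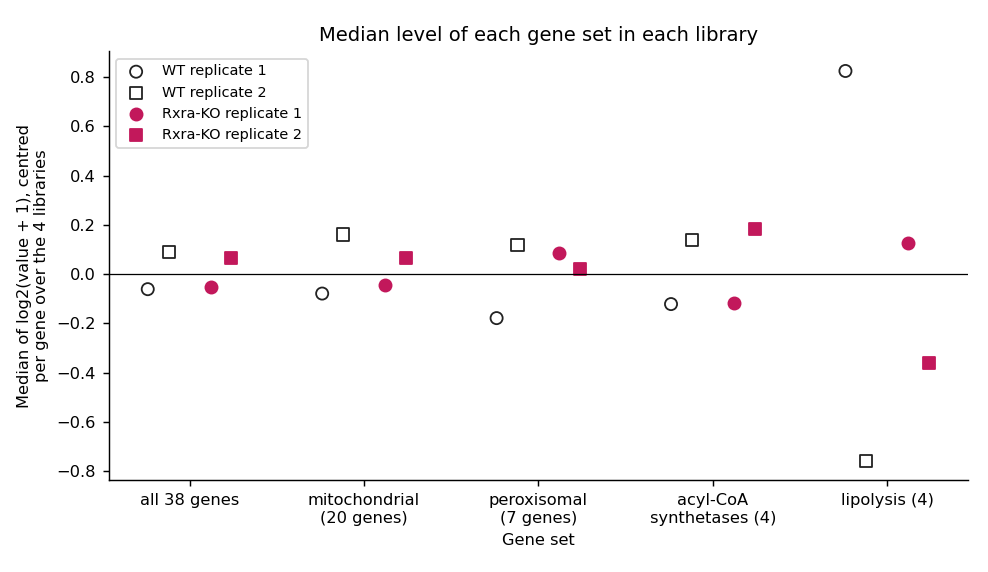
Median level of each set of genes in each library, as log2(value + 1) centred per gene on its mean over the 4 libraries. Open symbols are WT, filled symbols Rxra-KO, circles replicate 1 and squares replicate 2. In each of the sets shown, at least 1 Rxra-KO library lies between the WT libraries, and the WT libraries are furthest apart for lipolysis, at 0.82 and -0.76.

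Acyl-CoA thioesterases split acyl-CoA back into the free acid. *Acot2*, a mitochondrial member, had 16 and 14 reads in WT against 10 and 12 in Rxra-KO, or values of 25.0 and 15.7 against 15.8 and 12.4. WT replicate 1 was high and the other 3 libraries were alike, with a log2 fold change of -0.47 (SE 0.53, limma adjusted *p* = 0.891). The near copies *Acot3* and *Acot4*, with which reads could be shared, had between 1 and 7 reads. *Acot1*, another near copy of *Acot2*, was not matched by name in the table, so reads shared with it were not checked. *Acot8*, a peroxisomal member, had 4 and 2 reads in WT against 7 and 9 in Rxra-KO, both above WT. With a 95% interval of -0.39 to 2.53 for its log2 fold change, it was not called (limma adjusted *p* = 0.711). *Acot7*, a mostly cytosolic member, had between 5 and 12 reads.

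Long-chain acyl-CoA synthetases activate fatty acids for all of these paths, and in LPMs their transcripts were mostly those of *Acsl5*. *Acsl5* had 596 and 1001 reads in WT against 517 and 920 in Rxra-KO, the most reads of the 38 genes. The normalised read counts were 903 and 1086 in WT against 779 and 914 in Rxra-KO, and the groups overlapped. The log2 fold change was -0.23 (SE 0.22, 95% interval -0.66 to 0.19, limma adjusted *p* = 0.834). Of the summed level per kilobase of the 4 synthetases, *Acsl5* made up 82.8% and 78.4% in WT against 78.0% and 80.0% in Rxra-KO. *Acsl4*, which prefers arachidonic acid, made up 15.4% to 19.6%, and its values of 210 and 338 in WT enclosed 219 and 234 in Rxra-KO.

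*Acsl1*, the synthetase known as a PPAR target in liver and fat, had 7 and 22 reads in WT against 24 and 31 in Rxra-KO. Its values were 11.4 and 24.4 in WT against 36.9 and 31.3 in Rxra-KO, so that both Rxra-KO libraries were higher, and WT replicate 1 was the lowest. The log2 fold change of 0.98 did not pass (SE 0.46, limma adjusted *p* = 0.414), and became 0.46 when WT replicate 1 was left out. Its share of the summed synthetase level per kilobase was 1.13% and 1.92% in WT against 4.02% and 2.98% in Rxra-KO. *Acsl3* had between 1 and 5 reads.

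Lipolysis genes, which release fatty acids from triglyceride step by step, had few reads and varied widely between libraries of one group. The median absolute difference between replicates was 1.58 in WT and 1.33 in Rxra-KO on the log2 scale, against a median absolute log2 fold change of 0.40 between the groups. *Abhd5*, the coactivator of the first lipase, had 26 and 5 reads in WT against 20 and 7 in Rxra-KO. In both groups replicate 1 was high and replicate 2 low, at values of 40.1 and 5.97 in WT against 30.9 and 7.45 in Rxra-KO. Its log2 fold change was -0.04 (SE 0.57, limma adjusted *p* = 0.994). *Pnpla2*, the adipose triglyceride lipase of the first step, had 6 and 2 reads in WT against 1 and 5 in Rxra-KO. *Lipe*, the hormone-sensitive lipase of the second step, had 13 and 5 against 7 and 18. *Mgll*, the monoglyceride lipase of the last step, was within the floor in both groups, with 2 and 3 reads against 2 and 0, and no fold is given. None of the 4 was called or had an unadjusted p under 0.05 with limma, edgeR or DESeq2. *Abhd5* had no adjusted p with DESeq2, which therefore could not call it. Adipocyte markers, of which 8 were in the table and 0 called (2 at an unadjusted p under 0.05 with limma), had a summed value of 26.04 to 43.9 in WT against 25.8 to 36.1 in Rxra-KO, highest in WT replicate 1.

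RXR heterodimers bind repeats of the half-site AGGTCA, so the promoters were searched for it. RefSeq promoter windows of 300 bases, 250 before to 50 after the gene start, were found for 32 of the 38 genes (GRCm38.p6). The half-site on either strand was present in 5 of 32 (15.6%), against 18.1% of 27025 genes. Its exact direct repeat with 1 base between, the form bound by PPAR and RXR, was present in 0 of 32, against 13 of 27025 genes (0.0481%). So rare a match cannot tell 32 promoters from others, and inexact repeats or sites outside the window were not searched. The matches are shown for the 5 genes, in the direction of the gene, with the half-site or its reverse complement TGACCT in capitals and up to 12 bases on either side, fewer for *Acadm* where the window begins. They lie at chr9:122351535-122351564 for *Abhd5* and chr19:3323195-3323224 for *Cpt1a*, both on the plus strand. On the minus strand they lie at chr3:153944875-153944893 for *Acadm*, chr11:70015498-70015527 for *Acadvl* and chr7:140116487-140116516 for *Echs1*.
Abhd5: gcggcgtcgggcTGACCTtccttaccagtg
Cpt1a: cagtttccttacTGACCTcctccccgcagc
Acadm: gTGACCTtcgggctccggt
Acadvl: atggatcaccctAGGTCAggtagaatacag
Echs1: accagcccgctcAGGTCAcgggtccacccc
None of these 5 genes was called or had an unadjusted p under 0.05 with limma, with log2 fold changes from -0.45 to 0.19. A match is a description of letters, not evidence of binding.

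Other genes of the same pathways were compared as rows of the same fit, and 93 were in the table. Their log2 fold changes were above 0 for 47 and below 0 for 46. Of the 93, 2 were called higher and 2 lower, against 1.32% and 0.969% of all genes. Of 20 other mitochondrial oxidation genes, 0 were called and 0 had an unadjusted p under 0.05 with limma, edgeR or DESeq2. Of 20 other peroxisomal genes, 0 were called with limma, edgeR or DESeq2, with a median log2 fold change of -0.40. An unadjusted p under 0.05 with limma was reached by 3, against 10.1% of all genes. Of these, *Abcd4* (0.96) and *Acbd5* (0.84) were higher and *Abcd3* (-0.84) was lower. Of 9 triglyceride synthesis genes, 0 were called with limma, edgeR or DESeq2, and 3 had an unadjusted p under 0.05 with limma. These 3 were *Gpam*, *Dgat2* and *Lpin1*, each higher in Rxra-KO, against 10.1% of all genes in either direction. *Gpam* and *Dgat2* had at most 3 reads in each WT library.

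The 4 called genes bind, release or regulate fatty acids. The study had itself reported *Fabp4*, *Fabp5* and *Lpl* as changed in RXR-deficient LPMs, so their calls are not independent of it. Among 12 genes of activation and transport, the fatty acid binding proteins *Fabp4* and *Fabp5* fell. *Fabp4* had 336 and 460 reads in WT against 97 and 146 in Rxra-KO (log2 fold change -1.78, limma adjusted *p* = 5.19e-10). *Fabp5* had 294 and 389 against 72 and 119 (log2 fold change -1.92, limma adjusted *p* = 5.66e-11). In both, the Rxra-KO libraries lay far below WT.

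Among 19 other lipases and their inhibitors, *Lpl*, which releases fatty acids from lipoproteins outside the cell, was called higher, with 300 and 301 reads in WT against 372 and 971 in Rxra-KO. For this gene the log2 fold change was 0.93 (limma adjusted *p* = 0.00375), and it was not called without Rxra-KO replicate 2 (0.54) or without WT replicate 2 (0.69). Among 13 regulators, *Pparg*, a partner of RXR, had 1 and 0 reads in WT against 24 and 6 in the Rxra-KO libraries, and was at least 5.40-fold higher against the floor (limma adjusted *p* = 0.0164). That bound rested on Rxra-KO replicate 1, and was 1.53-fold with Rxra-KO replicate 2 alone. It was not called without Rxra-KO replicate 1 or without WT replicate 2 (limma adjusted *p* = 0.855 and 0.139), nor with voom (adjusted *p* = 0.0659). It was called with edgeR (adjusted *p* = 0.000965), and DESeq2 gave it no adjusted p.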

How the data were processed

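Per the labels and the study's methods, LPM RNA was made into SMART-Seq v4 libraries and sequenced on a NextSeq-500. The authors quantified transcripts with kallisto 0.43.0, summarised them to genes with tximport and scaled them by TMM. A human reference is named for these mouse libraries, so the reference was not settled, and no coordinates are given for the files. The deposited normalised signal is (reads + 0.5) times a step, and whole reads were recovered for 100% of values (tolerance 0.001). The filter stated by the authors was not reapplied. Samples that did not cluster with their group were left out by the study and were not analysed here.

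From these values, log2(value + 1) was fitted with limma 3.58.1 (R 4.3.3) with a mean-variance trend on all 4 libraries, without covariates. This scale understates the change of low genes. Two-sided p-values were adjusted over 18364 genes by Benjamini-Hochberg. A value of at least 1 in 2 libraries was required, which removed no gene. With 2 residual degrees of freedom, each test rests on the spread shared across genes (prior 227). Alternatives used edgeR 4.0.16, DESeq2 1.42.0 and voom on recovered reads. A group with at most 3 reads in each library was taken as at the floor, which covers counting error only, since the kit has no molecular identifiers and reads are not independent molecules. Levels per kilobase divide by the longest protein-coding transcript in GENCODE. Shares, ratios and ranks between genes also depend on the reference used by the authors, which was not settled.

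The 38 genes and all lists were chosen with earlier results of these data known. Values in full are given for each gene with an adjusted p under 0.05, up to 2 genes per role with a mean value of at least 10, no overlap and the largest change, and the gene with the most reads per role. *Acadl*, *Acadm*, *Acadvl*, *Acox3*, *Acaa1a*, *Decr2*, *Etfa*, *Acot8* and *Acsl4* and the low genes were added after their values were seen. *Decr1*, *Crat*, *Acat1*, *Hsd17b4*, *Acad9* and *Acaa2* were not matched to a promoter.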

Additional observations from a re-analysis of the deposited data

How the results depend on the processing

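The 421 calls over all genes were 417 and 424 with other pseudocounts, 375 with values of at least 10, 434 with DESeq2 size factors, 422 with voom and 446 with edgeR (405 shared). DESeq2 called 246. Limma without the mean-variance trend called 0, with 1579 at an unadjusted p under 0.05, and 26 with values of at least 10. Without the added 0.5 read, chosen like the last after seeing the data, it called 203, or 362 with the same filter. *Hsd17b4* was called in 9 of the 16 alternatives that changed the fit, and no other of the 38 genes in any. None of the 38 was called with DESeq2 (1 at an unadjusted p under 0.05, and some given no adjusted p). Nor was any called without the trend (1, or 2 of 30 with the filter) or without the added read (4). The causes were not tested. The filter removed no gene and the deposited scaling is TMM, so dropping or recomputing them tested nothing. The replicate block gave 540 calls, *Hsd17b4* included (limma adjusted *p* = 0.00634). Same-numbered libraries shared little deviation, with r = 0.035 across 18364 genes and 0.063 across 10049 genes with a mean value of at least 10. With a median of 9 reads per gene, counting error alone lowers r, so this cannot tell whether the numbers pair the libraries.

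Leaving out 1 library gave 236 to 377 calls (236 without WT replicate 2, 244 without Rxra-KO replicate 1) and 0 to 1 of the 38 genes. Medians ran from -0.18 to 0.029 for mitochondrial genes, -0.088 to 0.24 for peroxisomal genes, -0.10 to 0.20 for synthetases and -1.04 to 0.73 for lipolysis. The synthetase median of 0.03 became -0.23 with values of at least 10 (3 genes), also without the added read or the trend. Directions held for 14 genes under every alternative, and for *Acot8*, *Echs1* and *Mgll* under those that kept them, since the filter at 10 removed these 3. For genes whose groups did not overlap, leaving out 1 library could not turn the direction. Without 1 library the values also moved, with no change of sign, from -0.95 to -0.19 for *Eci2*, -0.52 to -0.046 for *Etfb*, 0.12 to 0.52 for *Hadhb* and -0.79 to -0.048 for *Decr1*. They turned for *Acat1* with DESeq2 size factors (-0.017), voom (-0.0092), edgeR (-0.014) and DESeq2 (-0.033), *Acad10* with voom (-0.037) and *Ehhadh* with a pseudocount of 0.1 (-0.048) and voom (-0.36). With 1 library left out, 21 genes turned, with ranges of -0.33 to 1.43 for *Hadha*, -0.17 to 0.18 for *Acat1*, -0.071 to 0.97 for *Etfa*, -0.29 to 0.51 for *Acox3*, -1.09 to 1.21 for *Ehhadh*, -0.60 to 0.29 for *Acot7*, -1.24 to 0.31 for *Pnpla2*, -1.33 to 1.24 for *Abhd5*, -0.46 to 0.095 for *Acadl*, -0.47 to 1.16 for *Acads*, -0.18 to 0.035 for *Acad9*, -0.78 to 0.20 for *Hadh*, -0.22 to 0.13 for *Decr2*, -0.49 to 1.08 for *Acsl3*, -0.58 to 0.11 for *Acsl4*, -0.47 to 1.15 for *Lipe*, -0.44 to 0.61 for *Acad10*, -0.51 to 0.12 for *Acaa2*, -0.61 to 0.057 for *Etfdh*, -0.0079 to 0.25 for *Acaa1a*, -0.048 to 0.31 for *Cpt1a*. Depth limits the lower genes, and 10 of the 38 had a mean under 10 reads.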
